A study of Mus musculus with 22 samples.

Results

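The genes of autophagy and mitophagy described here are 41 genes chosen by name for their known roles and taken as the rows of that name in the count tables of mouse striatum and white adipose tissue (WAT) that had a mean normalised count above 10 over all libraries of the tissue. All 41 passed in both tissues, among 15839 of the 55341 rows of the striatum table and 17941 of the 47643 rows of the WAT table. All mice were labelled as wild-type C57BL/6J males of 8 weeks. The hypothyroid controls had been treated for 2 weeks with propylthiouracil (PTU), an inhibitor of thyroid hormone synthesis, and gave 2 striatum and 4 WAT libraries. Thyroid hormone (TH) libraries were made at 12 h and 24 h from striatum and at 6 h and 24 h from WAT, with 4 libraries in each of these groups, and according to the series text the mice were hypothyroid before treatment. The study's overview gives a single injection of T3 and T4 for both tissues but lists PTU only for WAT, so that for striatum the labels are the only source for PTU. The comparisons asked which of these genes changed in level at each time after TH, and whether the response differed between the tissues.

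In macroautophagy a cup-shaped membrane closes around cytoplasm to form an autophagosome, which then fuses with a lysosome. The ULK kinase complex starts the process, the class III PI3-kinase complex with beclin 1 marks the membrane with a phosphoinositide, the ATG9, ATG2 and WIPI proteins supply and bind lipid, and a ubiquitin-like conjugation system attaches LC3 and GABARAP proteins to the membrane. Cargo receptors such as SQSTM1 tie cargo to LC3. Mitophagy is the removal of mitochondria in this way, through receptors of the outer mitochondrial membrane (BNIP3, BNIP3L, FUNDC1) or through the kinase PINK1. Thyroid hormone is known to raise mitochondrial turnover and energy use in several metabolic tissues.

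WAT libraries held 17.3 to 26.96 M counts and striatum libraries 8.06 to 10.2 M counts, and the members took 0.230% to 0.315% of a library. Normalised counts are counts scaled to a common library size within a tissue and are not comparable between the tissues. Hr, a textbook TH target, rose in each of the 4 contrasts with PTU, by 2.49 to 4.19 on the log2 scale. In 6 of the 10 striatum libraries (PTU replicate 6, 12 h replicate 1 and all of the 24 h group) the X-inactivation RNA Xist had 22068 to 33691 normalised counts and 4 Y-linked genes summed to at most 6.84, which goes against the label of male mice. The 24 h striatum replicate 2 had a summed level of 7 projection neuron markers of 1850, against 14939 to 40640.3 in the other striatum libraries, and the highest sum of 4 cortical neuron markers. WAT libraries carried variable numbers of muscle counts, with a sum of 8 muscle markers between 948 and 518336. Nothing states that the libraries of a group came from separate animals, so p-values measure the spread between these samples, which may be technical.

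Levels per length were compared within a tissue, as normalised counts per kb of annotated exon in the PTU libraries (mean ± SD). In WAT the highest was Lamp1, a major glycoprotein of the lysosome membrane, at 4547 ± 752 per kb (n = 4). It was followed by Bnip3 at 2465 ± 663 per kb and Gabarap at 1914 ± 140.2 per kb, whose library ranges overlapped. The lowest was Atg4d, a protease of the ATG4 family, at 28.4 ± 1.34 per kb, and its range overlapped that of Atg2b at 29.3 ± 3.11 per kb. In striatum Gabarap led at 1394 ± 69.1 per kb (n = 2), followed by Map1lc3a at 1245 ± 32 and Gabarapl1 at 875 ± 26.8 per kb, whose ranges did not overlap. The other two genes of the LC3 and GABARAP group, Map1lc3b and Gabarapl2, were at 188 ± 7.55 (rank 8) and 70.3 ± 3.8 per kb (rank 18). Bnip3 was at 36.3 ± 6.88 per kb, rank 27 of 41, and Tfeb, a transcription factor for lysosome and autophagy genes, was last at 5.23 ± 1.23 per kb.

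**Figure D1:**
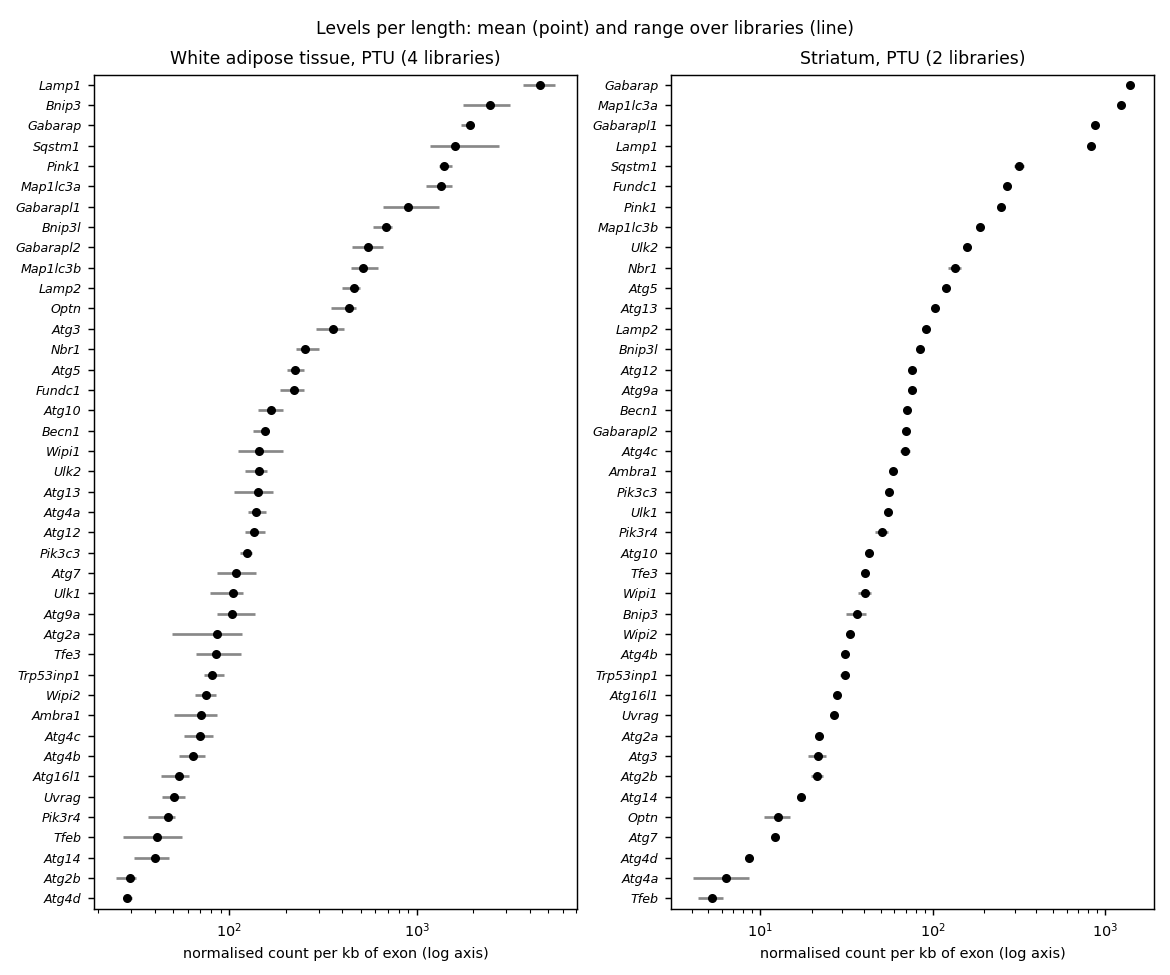
Levels of the 41 genes in PTU libraries of WAT (left, 4 libraries) and striatum (right, 2 libraries), as normalised counts per kb of exon on a log axis, with points for means and lines for the range over libraries. Lamp1 and Bnip3 head the WAT order and Gabarap and Map1lc3a the striatum order, in which Bnip3 has rank 27.

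A gene was called changed at an adjusted p under 0.05 in edgeR's quasi-likelihood test, adjusted by Benjamini-Hochberg over all genes tested in the tissue. In WAT at 24 h, 8 of 41 members (19.5%) were called, 7 lower and 1 higher than in PTU, where 17.1% of all genes were called (7.46% higher and 9.63% lower). The 7 that fell were the mitophagy genes Bnip3, Bnip3l and Pink1 and the conjugation genes Atg7, Atg12, Atg5 and Atg4a, and the 1 that rose was the kinase gene Ulk2. In WAT at 6 h, 3 of 41 (7.32%) were called, all lower, against 7.2% of all genes (4.17% higher and 3.02% lower). In striatum 1 of 41, Ulk1, rose at 12 h (2.44%), against 0.96% of all genes (0.732% higher and 0.227% lower), and none was called at 24 h, against 0.347% of all genes (0.316% higher and 0.0316% lower). The share of members called lay near that of all genes in both WAT contrasts. The median log2 change of the members was -0.08 in WAT at 24 h (all genes -0.002), 0.02 at 6 h (all genes -0.03), 0.09 in striatum at 12 h (all genes 0.008) and 0.04 at 24 h (all genes 0.02). The 4 contrasts share their PTU libraries within each tissue.

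**Figure D2:**
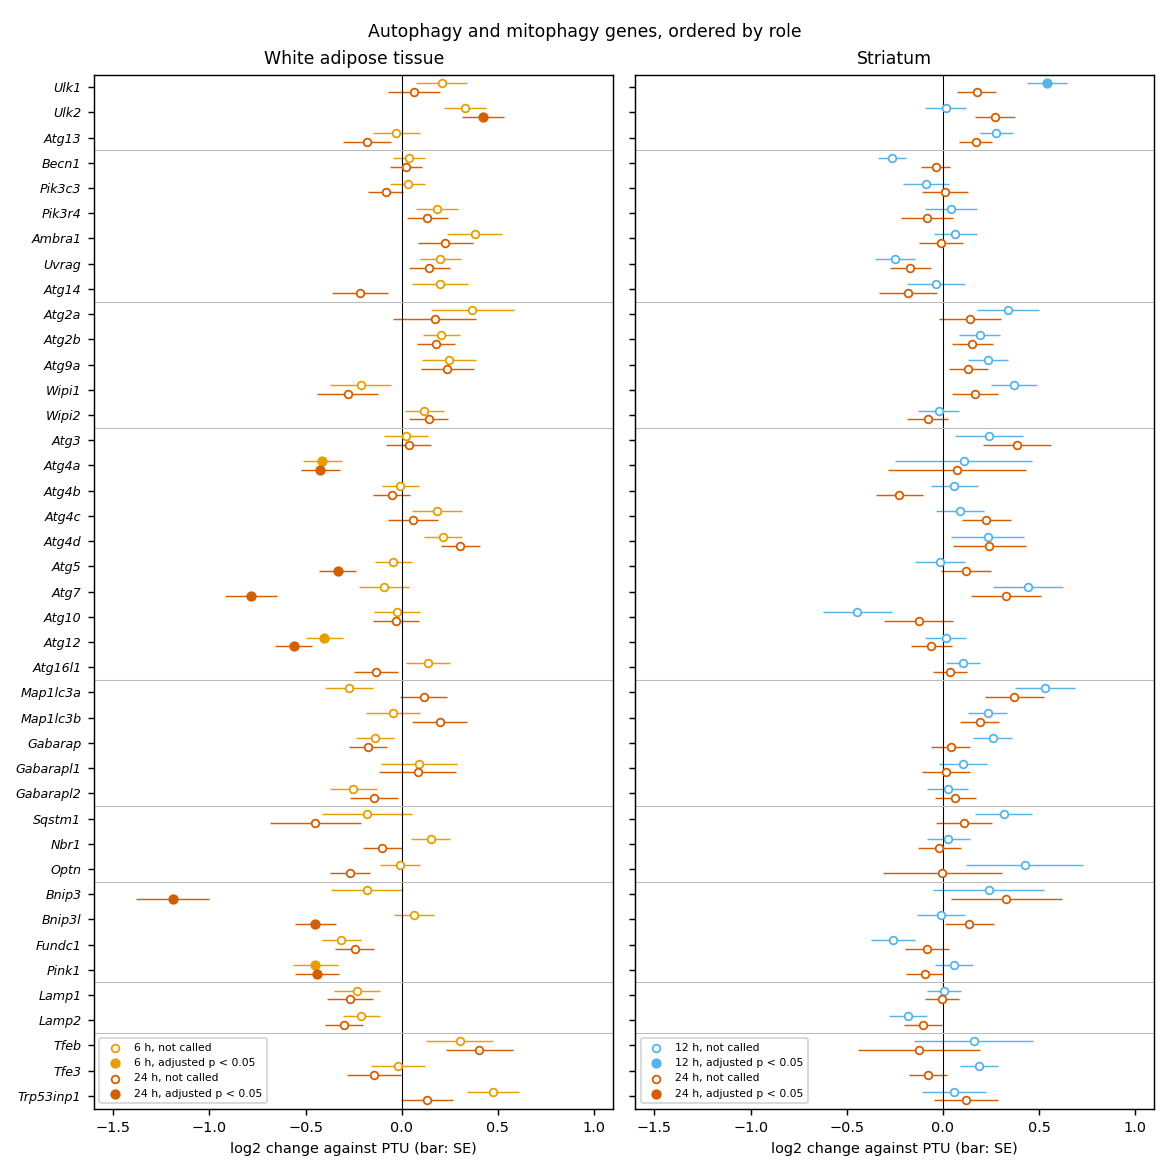
Log2 change against PTU (points) with its SE (bars) for the 41 genes in order of role, in WAT (left) and striatum (right). Filled points passed adjusted p under 0.05, which were 8 in WAT at 24 h, 3 in WAT at 6 h and Ulk1 alone in striatum at 12 h, and in WAT at 24 h they lie to the left of 0 except for Ulk2.

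Among the mitophagy genes 3 of 4 fell in WAT at 24 h, where 9.63% of all genes were called lower, and Bnip3 had the largest change of the 41 members. It encodes a mitophagy receptor that also responds to hypoxia (GRCm38 chr7:138890836-138909519, minus strand). Its normalised counts were 3999, 7082, 4623 and 6630.1 in the 4 PTU libraries of WAT, 4675, 5006, 5370.4 and 4636 at 6 h, and 2106, 3233, 2192 and 2259 at 24 h. All 24 h libraries were below all others, while those of 6 h lay within the PTU range. The log2 change at 24 h was -1.19 ± 0.19 (SE, edgeR adjusted p = 0.00136) against PTU and -1.01 ± 0.19 (adjusted p = 0.00946) against 6 h. In the comparison of 24 h with 6 h 3 of 41 members were called (7.32%), all lower, against 7.41% of all genes (3.07% higher and 4.34% lower). At 6 h the log2 change of Bnip3 was -0.18 ± 0.19 (adjusted p = 0.573).

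Bnip3l, also called Nix, encodes the related receptor that clears mitochondria from maturing red cells (GRCm38 chr14:66985239-67008877, minus strand). It had normalised counts of 2548, 2848, 2262 and 2856 in PTU, 2402, 2713, 3059 and 2824 at 6 h and 1777, 2122, 1820.2 and 1979 at 24 h. Again the 24 h group lay under both other groups. It fell by 0.45 ± 0.11 on the log2 scale against PTU (adjusted p = 0.0123) and by 0.51 ± 0.11 against 6 h (adjusted p = 0.0141). Pink1, the kinase that builds up on damaged mitochondria (GRCm38 chr4:138313409-138326307, minus strand), followed another course. Its normalised counts were 4109, 3616, 3507 and 3689 in PTU, 2368, 2636, 3069 and 2857 at 6 h and 2784, 3186, 2265 and 2764 at 24 h, so that both TH groups were below PTU and overlapped each other. The log2 change was -0.45 ± 0.12 at 6 h (adjusted p = 0.036), followed by -0.44 ± 0.12 at 24 h (adjusted p = 0.021), and 0.01 ± 0.12 between them (adjusted p = 0.973). Without the 24 h replicate 3 the log2 change of Pink1 at 24 h was -0.35 with adjusted p = 0.0574. Fundc1, the remaining receptor gene, had a log2 change of -0.31 ± 0.10 at 6 h (adjusted p = 0.0863), followed by -0.25 ± 0.10 at 24 h (adjusted p = 0.122), which did not pass.

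Part of the Bnip3, Bnip3l and Atg4a sequences recurs elsewhere in the genome. Of the 50-base words of their annotated transcripts, 36.9%, 20.8% and 51.2% were also found in distant genes. For Bnip3l the shared words lay in Bnip3l-ps, a transcribed processed pseudogene, and for Atg4a in Atg4a-ps, a gene annotated as protein-coding. For Bnip3 33.9% of the words lay in the lincRNA AC160336.1 and 13.5% in the processed pseudogene Gm16439. In WAT the row of the copy Bnip3l-ps held 39.4% to 46.4% of the counts of Bnip3l, Atg4a-ps 49.5% to 60.0% of those of Atg4a, and Gm16439 11.5% to 17.5% of those of Bnip3. In striatum these shares were 3.61% to 9.34% for Bnip3l-ps, 13.2% to 23.7% for Gm16439 and 70.6% to 245.5% for Atg4a-ps, where Atg4a itself had 10 to 25 counts. AC160336.1 had at most 1 count in striatum and no row of that name in WAT. The levels of Bnip3, Bnip3l and Atg4a are therefore uncertain in both tissues. The 2 tables also differed in rows that resemble each other. For WAT there were 233 pairs of rows that differed by less than 2% in every library, counted where the mean exceeded 100, and for striatum 0 such pairs. According to the study, alignments of low quality were discarded before counting. Beyond that, how reads with several matches were counted is not given for either table. The part of a difference between the tables in the comparison of the tissues was not tested. Bnip3 also overlaps an antisense gene over 22.3% of its exon bases. Genes on the opposite strand overlap more of Becn1 (43.9%) and Gabarapl1 (28.3%), and less of Atg4d (19.3%), Uvrag (17.6%) and Sqstm1 (17.3%). The other members have smaller overlaps of this kind or none. Atg9a and Pink1 share exon bases with genes on their own strand. The strand setting of the counting is not given in the sources used here. The part of these overlaps in the levels and changes was not tested.

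Of the 10 conjugation genes, 4 fell in WAT at 24 h and none rose, where 9.63% of all genes were called lower and 7.46% higher. Atg7 encodes the E1-like enzyme that activates both ATG12 and LC3 (GRCm38 chr6:114643097-114860614, plus strand). Its normalised counts were 971, 712, 739 and 601 in PTU, 595, 750.5, 740.1 and 752 at 6 h, and 423, 463, 450.0 and 422 at 24 h. The 24 h libraries were close together and all below those of PTU and 6 h, which overlapped. Atg7 fell by 0.78 ± 0.13 on the log2 scale against PTU (adjusted p = 0.0021) and by 0.69 ± 0.13 against 6 h (adjusted p = 0.0107).

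Atg12 encodes the ubiquitin-like protein that is joined to ATG5 (GRCm38 chr18:46730144-46741580, minus strand). It had 1104, 1189.9, 964 and 937 normalised counts in PTU, 775, 794, 800.1 and 805 at 6 h and 629, 723, 796 and 694 at 24 h. Both TH groups lay under PTU without overlap, and overlapped each other. The log2 change was -0.40 ± 0.10 at 6 h (adjusted p = 0.0256), followed by -0.56 ± 0.10 at 24 h (adjusted p = 0.0021). Atg4a, which encodes a protease that trims LC3 and GABARAP proteins (GRCm38 chrX:140956907-141164270, plus strand), had 346, 379, 335 and 418 normalised counts in PTU, 289.7, 278, 256 and 286 at 6 h and 287, 245, 269 and 300.0 at 24 h. Here too both TH groups were below PTU and overlapped each other, with a log2 change of -0.41 ± 0.10 at 6 h (adjusted p = 0.0286), followed by -0.42 ± 0.10 at 24 h (adjusted p = 0.0132).

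Atg5, the partner of ATG12 (GRCm38 chr10:44268358-44364291, plus strand), had 524, 585, 477 and 509 normalised counts in PTU, 489.9, 461, 516 and 563 at 6 h and 451, 386, 393 and 435 at 24 h. The 24 h group was below both others, with a log2 change of -0.33 ± 0.10 against PTU (adjusted p = 0.033) and -0.04 ± 0.10 for the 6 h group (adjusted p = 0.797). The call of Atg5 was lost without PTU replicate 2 (adjusted p = 0.101) and without 24 h replicates 2 (0.0871), 3 (0.0910) or 4 (0.0531). The other 6 conjugation genes, Atg3, Atg4b, Atg4c, Atg4d, Atg10 and Atg16l1, had log2 changes between -0.14 and 0.30 at 24 h and did not pass. Of these, Atg4d was nearest to the threshold, with 0.30 ± 0.10 and adjusted p = 0.0552, opposite in sign to Atg4a.

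Ulk2, a kinase that starts autophagy (GRCm38 chr11:61775649-61855073, minus strand), was the only member that rose in WAT at 24 h by this test. Its normalised counts were 725, 925, 820.1 and 948 in PTU, 1046, 1045, 1182 and 1021 at 6 h and 1088, 1367, 1077 and 1049 at 24 h. All TH libraries were above all PTU libraries, and 24 h replicate 2 was the highest. The log2 change was 0.42 ± 0.11 at 24 h (adjusted p = 0.0199), compared with 0.33 ± 0.11 at 6 h (adjusted p = 0.09). Without 24 h replicate 2 the first was 0.33 with adjusted p = 0.0517. Ulk1 and Atg13, of the same complex, had log2 changes of 0.06 ± 0.13 and -0.18 ± 0.12 at 24 h.

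**Figure D3:**
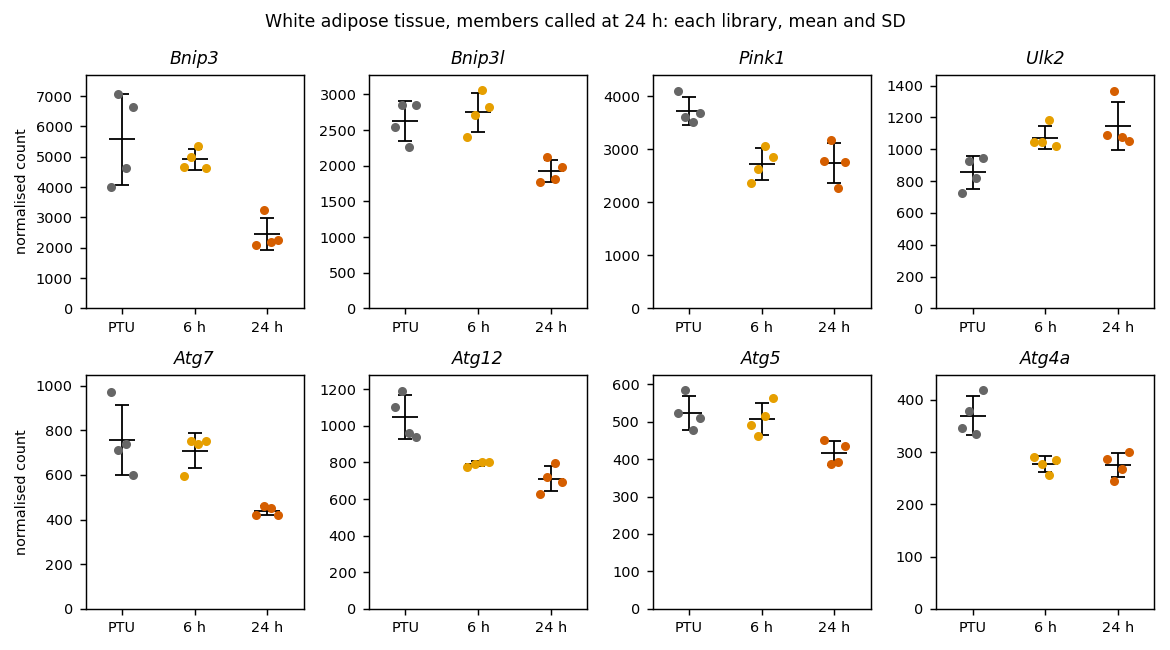
Normalised counts of the 8 genes called in WAT at 24 h, with a point for each of the 4 libraries per group and black bars for the mean and SD. Bnip3, Bnip3l, Atg7 and Atg5 are low at 24 h alone, Pink1, Atg12 and Atg4a are low at 6 h and 24 h, and Ulk2 is above PTU in all TH libraries.

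The remaining roles had no call in WAT at either time. The 6 genes of the class III PI3-kinase complex had log2 changes of -0.22 to 0.23 at 24 h, with beclin 1 (Becn1) at 0.02 ± 0.08. The 5 genes of the ATG9, ATG2 and WIPI group lay between -0.28 and 0.24. The 5 LC3 and GABARAP genes lay between -0.18 and 0.20. Among the 3 cargo receptor genes, Sqstm1, which ties ubiquitylated cargo to LC3, had 9162, 4128, 3959.8 and 4163 normalised counts in PTU and 3395 to 4312 at 24 h. PTU replicate 1 stood far above the rest, and the log2 change was -0.45 ± 0.24 (adjusted p = 0.211). The lysosome membrane genes Lamp1 and Lamp2 were at -0.27 ± 0.12 and -0.30 ± 0.10 (adjusted p = 0.143 and 0.0555). Of the regulators, Tfeb was at 0.40 ± 0.17 (adjusted p = 0.131), and Trp53inp1, a stress gene whose protein binds LC3, was at 0.47 ± 0.14 at 6 h (adjusted p = 0.0547), followed by 0.13 ± 0.14 at 24 h.

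At 24 h 9 of 41 members (22%) had WAT libraries that lay wholly above or below those of PTU, against 19.3% of all genes tested. Of the members 7 (17.1%) lay below and 2 (4.88%) above, against 10.3% and 8.99% of all genes. At 6 h 5 members (12.2%) did not overlap PTU, 3 below and 2 above, against 13.9% of all genes (6.08% below and 7.86% above).

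Fat cell markers were also lower in WAT at 24 h. The summed level of 5 adipocyte markers (Adipoq, Lep, Plin1, Cidec and Fabp4) was 359452 to 463095 in PTU, 300837 to 359566 at 6 h and 224889 to 320525 at 24 h, so that the 24 h libraries were all below PTU. Of these, Adipoq, Plin1 and Cidec fell at 24 h, by 1.17 ± 0.12, 0.89 ± 0.14 and 1.87 ± 0.34 on the log2 scale. The sum of 5 brown adipocyte markers was 1648 to 3005 in PTU, 4209.6 to 8752 at 6 h and 7252 to 21137 at 24 h, with no overlap of PTU with either TH group. The sum of 8 muscle markers was 2264 to 518336, 948 to 98495 and 39556 to 293758, and that of 6 macrophage and leukocyte markers 8803 to 12622, 7109 to 14491 and 11500.4 to 13827. The sum of 5 stratified epithelium markers (Krt5, Krt14, Krt15, Trim29 and Dsp) was 2.39 to 432 in PTU, 24.1 to 3438 at 6 h and 3.18 to 12.2 at 24 h, with the 24 h libraries all below those of 6 h. Of these 5 markers 4 were called lower at 24 h than at 6 h and 1 lower than in PTU, and the part of this list in the result was not tested. In bulk tissue, fewer cells of a type and less RNA per cell cannot be told apart.

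A score of the adipocyte markers (the mean of their log2 levels) was added to the fit after the data had been seen. None of the members was then called at 24 h, and of all 17941 genes 16 (0.0892%) were. Bnip3 then had a log2 change of -0.72 ± 0.51 (adjusted p = 0.68), Atg7 one of -0.28 ± 0.40 (0.848) and Pink1 one of 0.01 ± 0.32 (0.993). All 5 adipocyte markers had a negative log2 change at 24 h. Their sum was lower in all 24 h libraries than in PTU, while the 6 h range overlapped both. Marker level and the TH effect at 24 h therefore cannot be told apart, and the SE of each gene was wider than without the score. At 6 h all 3 calls were kept in that fit. The score of the brown adipocyte markers was also added after the data had been seen. None of the members was then called at 6 h or 24 h, and of all genes 0.479% and 0.106% were. With the muscle score as covariate, Bnip3 was at -1.20 ± 0.20 and Atg7 at -0.79 ± 0.14. In that fit 7 of the 8 calls at 24 h held, Atg5 being lost (adjusted p = 0.0551), while at 6 h 1 of the 3 calls held.

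**Figure D4:**
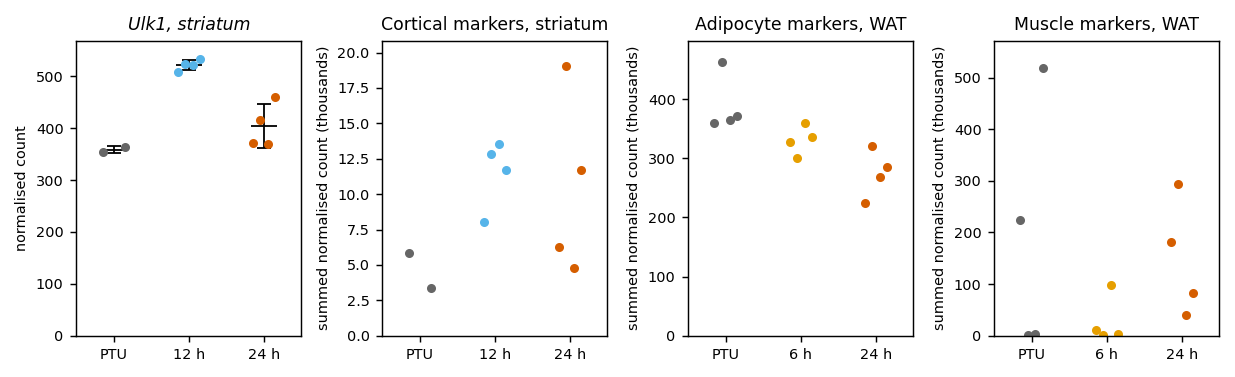
From left to right, normalised counts of Ulk1 in striatum (mean and SD in black), and summed normalised counts of cortical neuron markers in striatum, of adipocyte markers in WAT and of muscle markers in WAT, with a point for each library. Adipocyte markers are lower in all 24 h libraries than in PTU, muscle markers vary within groups, and cortical markers are higher at 12 h than in PTU, as is Ulk1.

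The 3 calls of the 6 h comparison in WAT, Pink1, Atg12 and Atg4a, were lost in some fits that left out 1 library. All 3 were lost without 6 h replicate 1, 2 or 4 or PTU replicate 2. In these fits 4.83%, 4.89%, 4.13% and 3.81% of all genes were called, against 7.2% with all libraries. Without 6 h replicate 3 Pink1 alone was called (3.82% of all genes). Pink1 was also lost without PTU replicate 1 or 4 (10.6% and 6.23%) or 24 h replicate 1 or 4 (5.69% and 5.72%). Atg4a was also lost without PTU replicate 4 (6.23%) or 24 h replicate 3 (6.51%). In the fits that lost the call, the log2 change was -0.46 to -0.37 for Pink1, -0.41 to -0.34 for Atg12 and -0.42 to -0.32 for Atg4a. Without 24 h replicate 2, which enters through the shared spread, 5 members and 7.83% of all genes were called. The adjusted p over these fits was at most 0.0756 for Atg12, 0.0825 for Atg4a and 0.0961 for Pink1.

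Promoter windows of RefSeq (GRCm38.p6), from 250 bases before to 50 bases after an annotated start, were matched for 34 of the 41 members. The E-box CACGTG, a palindrome and the core of the element bound by TFEB, was found in 6 of the 34 (Atg14, Atg3, Atg5, Atg7, Bnip3 and Lamp1) and in 8.09% of 27025 genes. The half-site AGGTCA of nuclear receptors, searched on both strands, was in 6 members (Atg10, Atg4a, Gabarapl2, Nbr1, Pik3r4 and Ulk2) and in 18.1% of genes. The CLEAR element, the E-box with GT before it and AC after it, and the DR4 element, 2 half-sites in the same direction 4 bases apart, overlap the shorter motifs and were in none of the members and in 0.37% and 0.0148% of genes. The 250 bases before the start are shown for 2 genes that fell and for the gene that rose in WAT at 24 h, to set these letters in place, 5′ to 3′ toward the start, with E-box or half-site in capitals. In Bnip3 the E-box begins 108 bases and in Atg5 14 bases before the start, and in Ulk2 the half-site begins 242 bases before it.
Bnip3 (chr7:138909507-138909756, minus strand): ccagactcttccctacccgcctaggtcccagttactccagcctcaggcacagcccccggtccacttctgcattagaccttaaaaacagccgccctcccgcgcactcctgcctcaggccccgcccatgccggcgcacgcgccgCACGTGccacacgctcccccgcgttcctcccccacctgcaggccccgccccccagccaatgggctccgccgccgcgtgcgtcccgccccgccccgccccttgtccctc
Atg5 (chr10:44268089-44268338, plus strand): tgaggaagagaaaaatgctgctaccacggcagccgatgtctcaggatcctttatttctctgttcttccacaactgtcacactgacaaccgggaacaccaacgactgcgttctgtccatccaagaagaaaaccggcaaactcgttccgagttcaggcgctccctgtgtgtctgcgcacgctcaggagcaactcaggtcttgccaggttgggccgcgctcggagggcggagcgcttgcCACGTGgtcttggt
Ulk2 (chr11:61855093-61855342, minus strand): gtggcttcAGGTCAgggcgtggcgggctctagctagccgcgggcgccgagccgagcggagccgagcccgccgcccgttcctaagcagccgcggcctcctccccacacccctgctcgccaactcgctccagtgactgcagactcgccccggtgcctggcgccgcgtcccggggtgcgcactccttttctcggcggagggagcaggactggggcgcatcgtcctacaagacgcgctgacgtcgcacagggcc
A match of letters is a description and does not show binding. The window of Atg7 is not shown, as it lies inside the gene model used here. Atg4a also fell and was counted with a half-site, and its windows are not shown either. That half-site lies in a window before the Atg4a gene model, and the window at the start of the model has none. Pink1, which fell too, had neither E-box nor half-site. For Bnip3l and Atg12, which also fell, no window was matched. The E-box window of Atg14 lies 2215 bases inside its gene model. The genes shown therefore do not set E-boxes apart for genes that fell or half-sites for genes that rose.

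Other genes of the same pathways, listed by function, were read beside the members. Of 23 further autophagy genes, 4 (17.4%) were called in WAT at 24 h, 2 higher and 2 lower, against 17.1% of all genes. Trp53inp2, whose protein shuttles from nucleus to autophagosome and binds LC3 and GABARAP, had 2494, 3171, 3586 and 2469 normalised counts in PTU, 4566, 4289.8, 4396 and 5320.1 at 6 h and 6000.4, 4968, 5662 and 5480.3 at 24 h in WAT. It rose without overlap, by 0.66 ± 0.13 (adjusted p = 0.0104) and 0.92 ± 0.13 (adjusted p = 0.000725) on the log2 scale. Tecpr1, which tethers autophagosomes to lysosomes, rose by 0.64 ± 0.09 at 6 h and 0.82 ± 0.09 at 24 h. Wdr45, of the WIPI family, and Stx17, the syntaxin of autophagosome fusion, fell at 24 h by 0.55 ± 0.11 and 0.37 ± 0.09. At 6 h 2 of the 23 (8.7%) were called, both higher, against 7.2% of all genes.

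Of 11 further mitophagy genes, 2 (18.2%) were called in WAT at 24 h, 1 lower and 1 higher, again against 17.1% of all genes. Fundc2, a homologue of Fundc1, fell by 0.56 ± 0.13 and 0.44 ± 0.13 at 6 h and 24 h, and Mul1, a mitochondrial ubiquitin ligase gene, rose by 0.30 ± 0.10 at 24 h.

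Among 25 genes of the nutrient-sensing kinases AMPK and mTOR, 5 rose and 3 fell at 24 h in WAT (32%, against 17.1% of all genes). Deptor, an inhibitor of mTOR, had 1356 to 2392 normalised counts in PTU and 4214 to 4705 at 24 h and rose by 1.17 ± 0.16 (adjusted p = 0.00049), while Mtor itself rose by 0.59 ± 0.17 (adjusted p = 0.0327). The AMPK genes Prkaa1, which encodes a catalytic subunit, and Prkab1, which encodes a scaffold subunit, rose by 0.39 ± 0.10 and 0.46 ± 0.12, whereas Prkag2, of a nucleotide-binding subunit, fell by 0.89 ± 0.12. At 6 h 3 of the 25 (12%, against 7.2%) were called, Prkaa1 and Stk11 higher and Prkag2 lower. Of the 24 lysosome genes, 3 rose and 5 fell at 24 h (33.3%, against 17.1%). The protease gene Ctsl rose by 0.49 ± 0.14 and the cholesterol exporter Npc1 by 0.65 ± 0.12, and the proton pump genes Atp6v1a and Atp6v1h fell by 0.43 ± 0.12 and 0.49 ± 0.10. At 6 h 2 of the 24 (8.33%, against 7.2%) were called, Npc1 higher and Npc2 lower.

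In striatum the 1 member called was Ulk1 (GRCm38 chr5:110784488-110810097, minus strand). Its normalised counts were 354 and 363 in PTU, 509, 524, 522 and 532 at 12 h and 372, 416, 370.4 and 460.5 at 24 h. The 12 h libraries were above all others, and those of 24 h lay between the other groups, 2 of them close to PTU. The log2 change was 0.54 ± 0.10 at 12 h (adjusted p = 0.0417), 0.18 ± 0.10 at 24 h (adjusted p = 0.632) and -0.37 ± 0.08 from 12 h to 24 h (adjusted p = 0.136). Without 12 h replicate 1, 2, 3 or 4 the call was lost (adjusted p = 0.0719, 0.132, 0.107 and 0.0912), with log2 changes of 0.52 to 0.55. Without PTU replicate 3 or 6 the log2 change was 0.51 and 0.56 (adjusted p = 0.320 and 0.232). Each of these fits has 1 PTU library, assumed to vary like the other groups, and called 0 and 1 of all genes, so that they say nothing about Ulk1 in particular.

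Cortical neuron markers moved with this contrast. The sum of 4 markers (Slc17a7, Neurod6, Neurod2 and Tbr1) was 3341 to 5849.8 in PTU, 8058 to 13558 at 12 h and 4784 to 19056 at 24 h, all 4 had a positive log2 change at 12 h and none was called. With the score of the cortical markers (the mean of their log2 levels) in the fit, the log2 change of Ulk1 was 0.43 ± 0.12 (adjusted p = 0.106). With the Y-linked score it was 0.54 ± 0.11 (adjusted p = 0.0753). The sum of 4 oligodendrocyte markers was 24812 to 36664 in PTU, 17773 to 24916 at 12 h and 14587 to 33245 at 24 h, while 7 projection neuron markers summed to 27730.2 to 40640.3, 14939 to 25329 and 1849.5 to 39853, with all 7 log2 changes negative at 12 h (median -0.90) and none called. The 6 macrophage and leukocyte markers summed to 1086 to 1150.3 in PTU and 758 to 999 at 12 h, again with all 6 changes negative and none called. Mitochondrially encoded genes took 17.3% to 17.7% of the counts in PTU and 13.97% to 16.2% at 12 h. The projection neuron and macrophage sums and the mitochondrial share were thus lower in all 12 h libraries than in PTU, and the part of these measures and of the oligodendrocyte sum in the result was not tested.

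The other striatal members did not pass. Map1lc3a, an LC3 gene, had 1496 and 1443 normalised counts in PTU, 2073, 2265, 2223 and 1938 at 12 h and 1659, 2297, 1553 and 2101 at 24 h, above PTU in all 8 TH libraries, with a log2 change of 0.53 ± 0.15 at 12 h (adjusted p = 0.101). Becn1 had 502 and 499 in PTU, 412, 411, 428 and 416 at 12 h and 489.7, 498, 479 and 487 at 24 h, with -0.27 ± 0.07 at 12 h (adjusted p = 0.0955). At 12 h 39% of the members had libraries wholly above or below PTU, against 36.4% of all genes, and at 24 h 14.6% against 18.2%. At 24 h 2 members had an unadjusted p under 0.05 and 0 passed by edgeR or DESeq2. Between 12 h and 24 h 0 members and 0% of all genes were called by edgeR, with 6 members at an unadjusted p under 0.05, and DESeq2 called 1 member (2.44%) and 1.54% of all genes.

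Among the pathway lists in striatum, Trp53inp2 had 2528 and 2763 normalised counts in PTU, 4523, 4576, 5019 and 5108 at 12 h and 3839, 5756, 4581 and 4766 at 24 h. It rose without overlap, by 0.86 ± 0.15 (adjusted p = 0.0286) and 0.84 ± 0.15 (adjusted p = 0.0473). Vmp1, a membrane protein needed for autophagosome formation, rose by 0.90 ± 0.13 at 24 h (adjusted p = 0.0252). Without PTU replicate 3 or 6, where 0 and 1 of all genes were called in each contrast, Trp53inp2 had log2 changes of 0.79 and 0.93 at 12 h and 0.76 and 0.91 at 24 h, and Vmp1 of 0.86 and 0.93 at 24 h, none of them called. The Trp53inp2 call at 12 h was also lost without any one of the 12 h libraries (adjusted p = 0.0502 to 0.0872) or without 24 h replicate 4 (0.0531). At 24 h that of Trp53inp2 was lost without 24 h replicate 3 or 4 (0.0792 and 0.129) or any 12 h library (0.0832 to 0.112), and that of Vmp1 without 24 h replicate 1 or 4 (0.0589 and 0.0586) or 12 h replicate 2 or 3 (0.0746 and 0.0566). With the Y-linked covariate neither was called (adjusted p = 0.0568 for Trp53inp2 at 12 h, followed by 0.144 for it and 0.105 for Vmp1 at 24 h). None of the 11 mitophagy, 25 nutrient kinase and 24 lysosome genes was called in striatum by edgeR, with 1, 5 and 4 at an unadjusted p under 0.05 at 12 h and 0, 2 and 3 at 24 h.

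The response at 24 h was compared between the tissues as an interaction in 1 fit of all 22 libraries, so its value is close to, but not exactly, the difference of the changes from the separate fits. It was called for 2 of 41 members (4.88%), both lower in WAT, against 5.33% of 13098 genes (1.86% higher and 3.47% lower). For Atg7 the log2 change was -0.78 ± 0.13 in WAT and 0.33 ± 0.18 in striatum, a difference of -1.10 ± 0.24 (adjusted p = 0.00893). The striatal Atg7 counts were 85.9 and 84.1 in PTU and 85, 126, 92.9 and 123 at 24 h. For Bnip3 the changes were -1.19 ± 0.19 and 0.33 ± 0.29, a difference of -1.50 ± 0.36 (adjusted p = 0.0173), with striatal counts of 93.3 and 71.2 in PTU and 84.1, 142, 67.9 and 118 at 24 h. In striatum the 24 h libraries of both genes overlapped those of PTU. By replicate, the 24 h sums of cortical markers were 6293, 19056, 4783 and 11708, and replicates 2 and 4, the highest in that sum, were also the highest for both genes. Replicate 2 had the low projection neuron sum of 1850, and all 24 h libraries of striatum had the Xist counts that go against their label. The part of these in the difference was not tested. Both calls were lost without striatum PTU replicate 3 (adjusted p = 0.0601 for Atg7 and 0.0577 for Bnip3) or replicate 6 (0.0667 and 0.147), which leaves 1 PTU library in the striatum. Bnip3l (-0.57 ± 0.17, adjusted p = 0.0505) and Atg12 (-0.49 ± 0.14, adjusted p = 0.0554) were next.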

How the data were processed

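RNA was sequenced from striatum (10 libraries) and WAT (12 libraries) with the Lexogen SENSE total RNA kit. Raw counts per gene were deposited by the authors, with 1 table for each tissue. According to the study and its processing notes, reads were aligned to GRCm38 (mm10) with Bowtie2 (2.2.6.2), alignments of low quality were discarded, and htseqcount gave the reads per gene. The annotation, the strand setting and the counting of reads with several matches are not given in the sources used here. For WAT, 608 symbols were brought to current ones by synonym.

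The tests used R 4.3.3, edgeR 4.0.16 and limma 3.58.1. A separate model per tissue held the 3 groups, with TMM factors. Genes whose mean normalised count exceeded 10 entered the quasi-likelihood F test, two-sided, with Benjamini-Hochberg adjustment over all tested genes and a threshold of 0.05, without a fold minimum. The interaction was fitted over all 22 libraries. The SE is the log2 change divided by the square root of F. DESeq2 1.42.0 and the other alternatives, which include marker covariates added after the data were seen, appear in the closing section. Sequence positions and exon lengths are of GENCODE M21, and promoter windows of RefSeq.

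Members and lists were chosen with earlier results of these data known, and 2 genes of the lists are not reported here. Members called in a contrast with PTU or between the WAT times were named, with further members where a role had none. The test was checked on simulated counts with known changes. At a true log2 change of 0.5 in either direction it called 3 of 99 changed genes for WAT at 24 h and 3 of 100 for striatum at 12 h. At a change of 1 it called 48 of 98 and 51 of 96, with 1 and 6 false calls. In WAT at 24 h 3066 of 17941 genes were called, far more than were changed in the simulation, so that the adjustment was less strict there. The simulated shares therefore do not give the share of changes found in that contrast, where Atg5 at -0.33 and Ulk2 at 0.42 were called. A gene that was not called may still have changed. No pair of libraries of 1 group agreed within sampling noise, the chi-square being at least 3.69 times its degrees of freedom. Replicate numbers were not taken as pairs: the deviations of same-numbered libraries correlated at -0.47 to 0.39 in WAT, with 4 of 12 pairs over 0.1, and at -0.40 to 0.27 in striatum, with 3 of 6.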

Additional observations from a re-analysis of the deposited data

Results flagged for a closer look

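A library was singled out where its gap to the nearest other library of its group of 4 exceeded Dixon's 95% critical value as a share of the range. Among 205 such groups of members 13 were found, when chance gives about 1 in 20. In WAT at 6 h, replicate 3 stood above the rest for Ulk1 (870 normalised counts, the others 743 to 759) and Ulk2 (1182, the others 1021 to 1046), replicate 1 stood below for Atg7 (595, the others 740 to 752) and above for Atg14 (229, the others 187 to 194), and replicate 2 stood below for Gabarapl2 (909, the others 1113 to 1121). In WAT at 24 h, replicate 2 stood above for Ulk2 (1367, the others 1049 to 1088) and for Bnip3 (3233, the others 2106 to 2259), and it held 293758 counts of muscle markers. In WAT PTU, replicate 1 stood below for Becn1 (939, the others 1118 to 1153) and above for Sqstm1 (9162, the others 3960 to 4163), and replicate 4, with 518336 muscle marker counts, stood below for Optn (1311, the others 1721 to 1780). In striatum, 12 h replicate 4 was high for Pik3r4 (558, the others 483 to 494), 12 h replicate 2 was high for Optn (74.4, the others 59.5 to 61.9) and 24 h replicate 2 was high for Atg2b (356, the others 307 to 312).

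The response at 24 h differed between the tissues, by the interaction test of edgeR, for Atg7 (-1.10 on the log2 scale, adjusted p = 0.00893) and Bnip3 (-1.50, adjusted p = 0.0173).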

How the results depend on the processing

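The number of members called was 1 in striatum at 12 h, 0 at 24 h and 0 between these times, 3 in WAT at 6 h, 8 at 24 h and 3 between these times, and 2 for the difference between tissues. DESeq2 gave 2, 0, 1, 5, 10, 5 and 4 in the same order, and of all genes it called 5.03%, 1.28%, 1.54%, 11.8%, 21%, 12.1% and 7.38%, more than edgeR in each. A fit of the groups of the contrast alone gave 2 in striatum at 12 h, 1 for WAT at 6 h, 6 between the WAT times and 0 for the difference between tissues (9.14%, 4.64%, 13.6% and 1.95% of all genes), and no filter on low counts gave 0 in WAT at 6 h (2.93% of all genes). Of the marker scores added after the data were seen, the cortical score gave 0 in striatum at 12 h (1.73% of all genes) and 1 between its times (1.76%). The adipocyte score gave 0 in WAT at 24 h (0.0892%) and 0 between its times (0%), and the brown adipocyte score 0 at 6 h (0.479%) and 0 at 24 h (0.106%). The planned covariates gave 0 in striatum at 12 h (Y-linked score, 0.505% of all genes) and 1 for WAT at 6 h (muscle score, 6.73%). Leaving out PTU replicate 4 and 24 h replicate 2, the 2 WAT libraries with most muscle counts, gave 5 between the WAT times (6.17%). The cause of these moves was not tested. Pink1 reversed in WAT at 24 h with the adipocyte covariate, to 0.0143 on the log2 scale.

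Leaving out 1 library at a time gave 0 to 2 members in striatum at 12 h (2 without 24 h replicate 2, 7.95% of all genes). It gave 0 to 0 at 24 h and between its times. In WAT it gave 0 to 5 members at 6 h, where 3.81% to 10.6% of all genes were called. At 24 h it gave 6 to 13 (13 without PTU replicate 4, 16.5% of all genes), against 10.9% to 23.9% of all genes. Between the WAT times it gave 3 to 5 (5 without PTU replicate 1, 11.4%), against 3.69% to 11.4%. For the difference between tissues it gave at most 4 (without striatum 24 h replicate 3, 5.55%, or WAT PTU replicate 4, 5.15%). Atg7, Atg12, Atg4a, Bnip3 and Bnip3l stayed called at 24 h in WAT in all 12 such fits. The part of depth, 8.06 to 10.2 M counts in striatum against 17.3 to 26.96 M in WAT, in the number of calls was not tested.

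With a replicate block by number, WAT gave 1 member at 6 h, 6 at 24 h and 3 between its times (4.94%, 12.9% and 4.33% of all genes). Striatum gave 0 between its times (0.0442% of all genes). No paired analysis was possible for the striatum PTU contrasts because the groups share 1 number or none.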
